A study of Arabidopsis thaliana with 36 samples.

Results

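Untreated 28-day-old rosettes of the Arabidopsis thaliana accession N14 were compared with those of the reference accession Col-0. The comparison held 6 of the 36 RNA-seq libraries of the study, chosen by the accession and condition in their labels: 3 N14 libraries and 3 Col-0 libraries, 1 of each from each of 3 independent experiments. Both accessions are natural inbred lines with no transgene named in the labels, which describe Col-0 as intermediate and N14 as high in freezing tolerance. Plants grew on soil, with nights given as 6 °C in the first week, then short days, and a last week of long days of 16 h at 20 °C by day and 16 °C by night under 200 µE of light. None of the 6 libraries came from plants that were moved to the 4 °C cold treatment used elsewhere in the study. Each library was made from RNA of 5 pooled replicate samples, with 15 rosettes on the label, so that plant-to-plant variation within an experiment cannot be seen. The sources used here do not state the time of day of harvest.

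Accessions of Arabidopsis are known to differ in inherited variants at many loci, above all in flowering time, in the glucosinolates that defend the leaf, and in immune receptors. Flowering in winter-annual accessions is held back by FLC, a MADS-box repressor that FRIGIDA activates and prolonged cold silences, while Col-0 is an early-flowering accession known to carry a non-functional FRIGIDA allele. Glucosinolates are sulfur-rich defence compounds that myrosinases cut when tissue is damaged, and specifier proteins decide which toxic product forms. Immune receptors of the NLR type (nucleotide-binding, leucine-rich repeat) recognise pathogen effectors and sit in clusters that vary strongly between accessions.

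Levels are CPM, the usual read counts relative to library size, with library sizes adjusted by TMM, and are listed in the order of experiments 1, 2 and 3. Differences are given as log2 fold changes, N14 minus Col-0, ± SE. They were tested by quasi-likelihood in edgeR, with p-values adjusted after Benjamini and Hochberg over all 20263 genes tested and calls made where the adjusted p was below 0.05. Total counts ran from 23427272 to 24949828 in Col-0 and from 22539897 to 25791071 in N14. In a principal component analysis of log2 CPM, the first component held 63.8% of the variance and separated the accessions, with Col-0 between -65 and -60.7 and N14 between 57.6 and 70.4. On the second component, with 16.9%, the N14 library of experiment 1 stood apart at -57.8 against 28.6 and 34.5 for the other 2 N14 libraries. Reads were assigned to a genome of Col-0 origin, so for a gene low in N14, less RNA and reads of a diverged sequence left unassigned cannot be told apart from these counts. In pooled rosettes, fewer cells of a type and less RNA per cell cannot be told apart either.

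That N14 library of experiment 1 held relatively more of short transcripts and less of long ones. Its median log2 difference from the other 2 N14 libraries fell from 0.50 for transcripts of 108 to 1289 nt, through 0.13 and -0.13 at middle lengths, to -0.64 for those of 2384 to 16593 nt. In these 4 length groups of 2877 to 2891 genes, no Col-0 library deviated by more than 0.22. In the shortest group, 261 were called higher and 98 lower with all libraries, against 113 and 152 without that library. In the longest group the counts were 47 and 113 with it and 101 and 72 without it. Counts of called list and family members are given below without it as well where they changed. Single genes whose call it alone ended are marked below. For BCAT4, CYP81F1, RPP13, COR27, LDOX, TT19, ELF4 and EXPA8, it was among several libraries whose loss each ended the call.

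**Figure D1:**
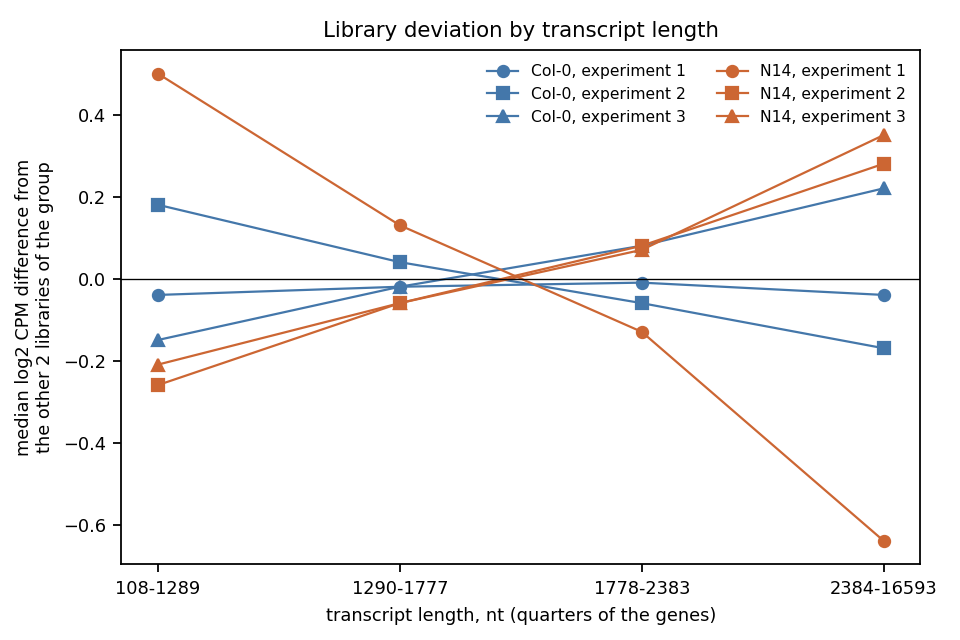
Median log2 CPM difference of each of the 6 libraries from the other 2 libraries of its group (y axis) for genes in 4 groups of transcript length in nucleotides (x axis). Lines join the values of 1 library; the N14 library of experiment 1 runs from 0.50 in the shortest to -0.64 in the longest group, while the Col-0 libraries stay within 0.22 of 0.

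Markers matched the labelled tissue. Summed leaf mesophyll markers lay between 57563 and 85664 CPM in Col-0 and between 77404 and 82753 in N14, and none of the 5 was called. Flower markers summed to 1.06 to 1.55 CPM in Col-0 and 0.69 to 1.24 in N14, pollen markers reached at most 0.046 CPM, and seed markers at most 0.266, with OLEO1 and OLEO2 at 0 in all 6 libraries. Root markers summed to between 52.4 and 137 CPM in Col-0 and 50.2 and 56.9 in N14, most of it from PYK10; 1 of 4 tested, PRX72, was called lower, at 0.302 to 0.731 CPM in Col-0 and 0 in N14, though not without the N14 library of experiment 1. The late senescence marker SAG12 was at 0 in all but 1 library, and none of 5 senescence or 3 trichome markers was called.

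N14 and Col-0 differed in a large set of genes before any treatment. Of the 20263 genes tested, 2501 (12.3%) were called, 1220 (6.02%) higher and 1281 (6.32%) lower in N14, around a median log2 difference of 0.02 over all genes. Counts of called list members below are to be read beside these shares. At least 2-fold differences were seen in 670 called genes (3.31%) higher and 804 (3.97%) lower, and at least 8-fold differences in 251 and 329. When 1 of the 6 libraries was left out, between 830 and 1047 of the genes called higher and between 931 and 1083 of those called lower were still called, and none was called in the other direction. Fitting only the 6 libraries compared, in place of all 36 with a shared spread, gave 536 higher and 732 lower.

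**Figure D2:**
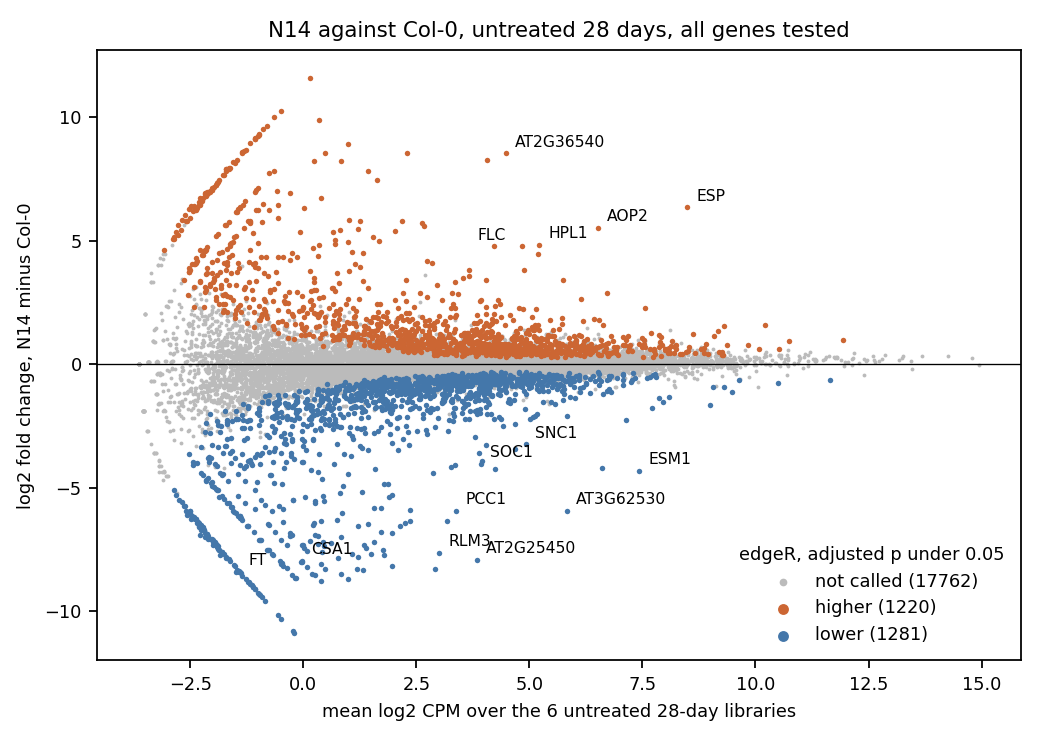
Log2 fold change of N14 minus Col-0 (y axis) against mean log2 CPM over the 6 libraries (x axis) for the 20263 genes tested, with 1220 genes called higher and 1281 called lower in colour. The diagonal edges at left are genes with no counts in 1 accession, whose fitted change depends on the prior count; ESP, AOP2, FLC and AT2G36540 stand high at high levels, and ESM1, AT3G62530, SNC1 and SOC1 stand low.

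**Figure D3:**
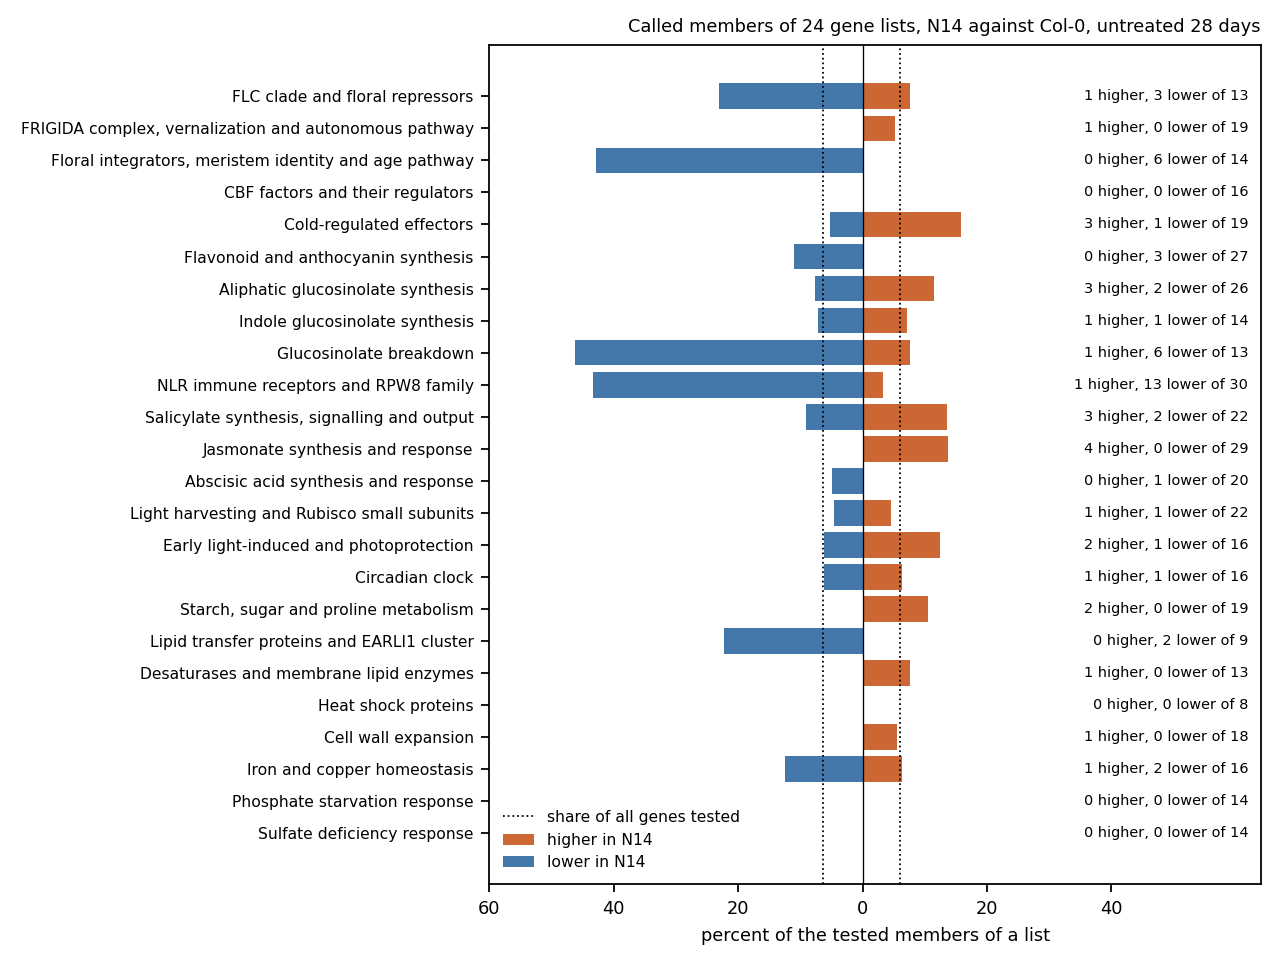
Share of the tested members of 24 gene lists called higher (right) or lower (left) in N14, in percent (x axis), with the counts at right and dotted lines at the shares over all genes tested, 6.02% higher and 6.32% lower. Floral integrators, glucosinolate breakdown and NLR receptors have the longest bars to the left, with 6 of 14, 6 of 13 and 13 of 30 members lower.

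FLC was higher in N14, while 3 other repressors and 6 promoters of flowering were lower. FLC, the MADS-box repressor of flowering, was at 3.58, 5.98 and 7.15 CPM in Col-0 and at 187, 133 and 137 CPM in N14. Every N14 library lay above every Col-0 library, and the difference was 4.77 ± 0.28 on the log2 scale (27.3-fold, adjusted p = 9.3e-14). Of the 13 floral repressors tested, FLC was the 1 member called higher and 3 were called lower, with a median of 0.08. The 3 were MAF4, MAF5 and TOE2. MAF4, an FLC relative, was at 1.58, 2.57 and 3.28 CPM in Col-0 and between 0.184 and 0.212 in N14 (-3.60 ± 0.56, adjusted p = 1.8e-05). MAF5, another FLC relative, was at 3.62, 4.30 and 4.05 CPM in Col-0 and 0.743, 0.640 and 0.690 in N14 (-2.52 ± 0.31, adjusted p = 5.3e-07). Neither gene's groups overlapped, and 6 of 6 other count tables called both lower, although reads of such near relatives may be split between them. TOE2, an AP2-like repressor, was lower by a smaller amount (-0.47 ± 0.13, adjusted p = 0.015), a call lost without the Col-0 library of experiment 3 (adjusted p = 0.09). The other relatives FLM, MAF2 and MAF3 were at 0.02, 0.20 and 0.25, and SVP, a partner of FLC in repression, was at 0.08, none of them called.

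Among the promoters of flowering, the called genes were all lower in N14. FT, which encodes the mobile flowering signal, had 1.19, 2.04 and 1.81 CPM in Col-0 and no counts in any N14 library. Taken against a floor of 3 counts per library, it was at least 12.1-fold lower in N14 (adjusted p = 4.9e-05). SOC1, the MADS-box integrator that acts downstream of FT and FLC, was at 59.3, 76.1 and 49.9 CPM in Col-0 and 3.56, 3.44 and 4.28 CPM in N14, a difference of -4.04 ± 0.40 (adjusted p = 5.9e-09). In both genes the highest N14 library was far below the lowest Col-0 library. FUL, a MADS-box gene of meristem identity, was at 3.54, 2.21 and 2.2 CPM in Col-0 against 0.266, 0.240 and 0.414 in N14 (-3.10 ± 0.30, adjusted p = 3.7e-09). SPL15, a promoter of flowering in the age pathway, had 6 counts over the 3 N14 libraries, which gave a ratio of 17.5 with a 95% counting interval of 7.81 to 48.7 (adjusted p = 4.6e-05). A further pair of members was called lower: SPL4 at -1.31 ± 0.30 (adjusted p = 0.0027) and AGL24 at -0.79 ± 0.21 (adjusted p = 0.0094), the last not without the Col-0 library of experiment 1 or the N14 library of experiment 2 (adjusted p up to 0.11). In all, 6 of 14 tested members of the integrator, meristem identity and age list were called lower and none higher, with a median of -1.48. CO, the day-length sensor upstream of FT, was at no more than 0.259 CPM in any library and was not called (-1.66 ± 1.16, adjusted p = 0.43).

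Among the known regulators of FLC, FRI was at 5.47, 5.40 and 4.87 CPM in Col-0 and at 5.20, 6.40 and 5.01 CPM in N14. Its groups overlapped and it was not called (0.08 ± 0.14, adjusted p = 0.81). Over the FRIGIDA complex, vernalization and autonomous pathway list, 1 of 19 tested members was called, beside 12.3% of all genes. The median was 0.08, with a range from -0.44 to 0.56. Without the N14 library of experiment 1, 2 were called. The gene called with all libraries, VRN1, which is needed to keep FLC silent after prolonged cold, was higher at 26.7, 23.8 and 19.0 CPM in N14 against 14.2, 17.5 and 15.5 in Col-0 (0.56 ± 0.13, adjusted p = 0.004). VIN3, which prolonged cold is known to induce, was at or below 0.046 CPM in all 6 libraries.

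**Figure D4:**
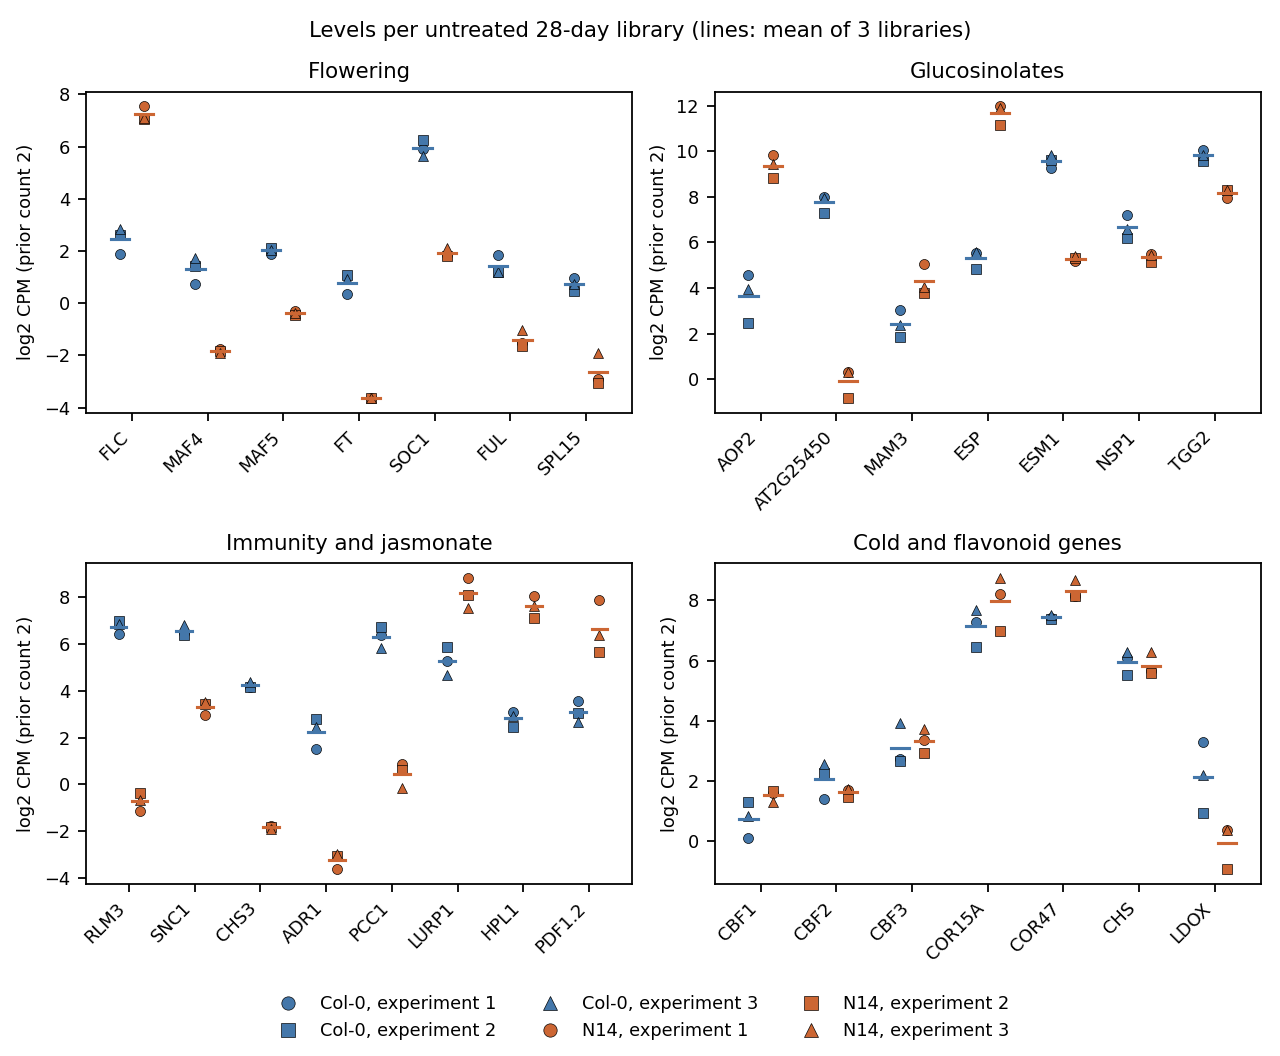
Log2 CPM (y axis, prior count of 2) of 29 genes in 4 groups in each untreated 28-day library, blue for Col-0 and orange for N14, with circles, squares and triangles for experiments 1, 2 and 3 and a line at each mean of 3 libraries. FLC, AOP2, ESP, LURP1, HPL1 and PDF1.2 sit higher in all N14 libraries, FT (no counts in N14), SOC1, ESM1, RLM3, CHS3 and PCC1 sit lower, and CBF1, CBF2, CBF3 and CHS were not called.

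Single glucosinolate genes of side-chain modification and breakdown were close to switched between the accessions. Of 26 tested members of aliphatic glucosinolate synthesis, 3 were called higher and 2 lower, with a median of 0.41. These counts were 2 and 2 without the N14 library of experiment 1. AOP2, which converts sulfinyl side chains to alkenyl ones and is known to be non-functional in Col-0, was at 23.8, 5.36 and 15.4 CPM in Col-0 and 924, 457 and 683 CPM in N14. Both groups varied with the experiment, lowest in experiment 2, and they were far from overlapping (5.53 ± 0.55, 46.2-fold, adjusted p = 8.0e-09). AOP3, the neighbouring enzyme that makes hydroxyalkyl side chains, had no counts in any of the 6 libraries. AT2G25450, annotated as a 2-oxoglutarate-dependent oxygenase, went the other way, from 257, 158 and 248 CPM in Col-0 to 1.17, 0.48 and 1.15 CPM in N14 (-7.91 ± 0.39, 240-fold lower, adjusted p = 2.6e-15). FMOGS-OX2, an S-oxygenase of the side chain, was lower at 0.85, 0.28 and 1.1 CPM against 5.77, 1.46 and 2.89 (-2.2 ± 0.59, adjusted p = 0.011), a call lost without the Col-0 library of experiment 1 or the N14 library of experiment 2 (adjusted p up to 0.13).

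Chain elongation differed in 2 enzymes. MAM3, which elongates methionine to long chains, was at 33.6, 13.7 and 16.4 CPM in N14 against 8.01, 3.50 and 5.09 in Col-0 (1.93 ± 0.41, adjusted p = 0.0011). BCAT4, the first enzyme of elongation, was at 624, 202 and 339 CPM in N14 against 270, 95.8 and 141 in Col-0, with overlapping groups; its call (1.2 ± 0.40, adjusted p = 0.043) was lost when any of 4 libraries was left out (adjusted p up to 0.34). MAM1, which makes the short chains, was at 298, 99.5 and 192 CPM in Col-0 and 282, 133 and 260 in N14 (0.19 ± 0.41, adjusted p = 0.84). The regulators MYB28 and MYB29 were at -0.07 and -0.40, and the core enzymes CYP79F1 and CYP83A1 at 0.67 and 0.65, none called.

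In indole glucosinolate synthesis, 1 of 14 tested members was higher and 1 lower, with a median of 0.04. These counts were 1 and 0 without the N14 library of experiment 1. IGMT2, a methyltransferase of the indole ring, was at 1.00, 7.71 and 3.36 CPM in Col-0 and 37.5, 61.0 and 36.7 CPM in N14 (3.50 ± 0.56, adjusted p = 3.1e-05). Its near copy IGMT1 stayed between 3.35 and 5.44 CPM in all 6 libraries (0.16 ± 0.47, adjusted p = 0.89), and reads of the pair may have been split. CYP81F1, which hydroxylates the ring, was lower (-0.99 ± 0.29, adjusted p = 0.021), but 2 of 6 other count tables made that call and leaving out any of 4 libraries ended it (adjusted p up to 0.092).

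Breakdown genes differed in both directions. ESP, the epithiospecifier protein that turns breakdown toward nitriles and epithionitriles, was at 46.7, 28.7 and 47.8 CPM in Col-0 and 4007, 2270 and 3757 CPM in N14. The groups were far apart (6.35 ± 0.35, 81.5-fold, adjusted p = 3.2e-14). ESM1, known to favour isothiocyanates over nitriles, showed the reverse, with 614, 779 and 916 CPM in Col-0 and 35.9, 39.7 and 41.9 CPM in N14 (-4.30 ± 0.24, 19.6-fold lower, adjusted p = 4.0e-14). Over the other 6 count tables the values ran from 6.31 to 6.38 for ESP and from -4.29 to -4.25 for ESM1.

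Of 13 tested breakdown genes, 6 were called lower and 1 higher, with a median of -0.77. TGG2, a leaf myrosinase, was at 1069, 760 and 920 CPM in Col-0 and 246, 318 and 313 CPM in N14 (-1.65 ± 0.30, adjusted p = 2.1e-04). TGG1, the other leaf myrosinase, was at 1792, 1703 and 2196 CPM against 857, 1317 and 1166 (-0.77 ± 0.18, adjusted p = 0.0035). NSP1, a nitrile specifier, was lower at -1.35 ± 0.32 (adjusted p = 0.004). NIT1, a nitrilase that takes nitriles further, was lower at -1.14 ± 0.26 (adjusted p = 0.0023), and MVP1, a GDSL lipase-like protein, at -0.79 ± 0.14 (adjusted p = 2.2e-04). Every N14 library lay below every Col-0 library for these 5 genes. With the experiment as a replicate block, the list counted 7 lower and 2 higher.

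Many immune receptors were lower in N14. In a list of NLR receptors and the related RPW8 family, 13 of 30 tested members were called lower and 1 higher, beside 6.32% and 6.02% of all genes, and the median was -0.51. Without the N14 library of experiment 1, in which long transcripts were under-represented, the counts were 11 lower and 2 higher; the median transcript of the list was 3611 nt. RLM3, a TIR-domain protein of fungal resistance, was at 85.2, 126 and 116 CPM in Col-0 and 0.372, 0.680 and 0.552 CPM in N14 (-7.63 ± 0.37, adjusted p = 1.7e-15). CSA1 and CHS3, a pair of TIR-type receptors known to act together, were both nearly undetected in N14. CSA1 had 2 counts over the 3 N14 libraries against 9.24, 8.46 and 8.71 CPM in Col-0, a ratio of 289 with a 95% counting interval of 79.7 to 2394 (adjusted p = 5.5e-12). CHS3 fell from 18.1, 18.1 and 20.5 CPM in Col-0 to 0.212, 0.200 and 0.184 in N14 (-6.54 ± 0.47, adjusted p = 8.9e-12). The size of both depended on the counting, with CSA1 between -7.93 and -3.40 and CHS3 between -6.97 and -2.97 over the other 6 tables, all of which called them lower.

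ADR1, a helper receptor used by many others, also had 2 counts in N14 in all, against 2.73, 6.91 and 5.30 CPM in Col-0, a ratio of 160 with a counting interval of 43.9 to 1326 (adjusted p = 3.4e-07). Its relatives ADR1-L1 and ADR1-L2 were at -0.63 and 0.16 and were not called. HR4, a member of the RPW8 family, reached 119 CPM in the Col-0 library of experiment 2 and no more than 0.850 CPM in any N14 library (-6.33 ± 0.68, adjusted p = 3.2e-08). Leaving out 1 library at a time gave values from -6.75 to -5.02 for HR4, called each time. WRR4, which confers white rust resistance, was lower at -4.25 ± 0.44 (adjusted p = 2.1e-08), and LAZ5 at -2.14 ± 0.24 (adjusted p = 7.6e-08). All of the other 6 tables called these 3 lower, with sizes that depended on the table: HR4 ran from -6.97 to -2.60, WRR4 from -4.53 to -2.91 and LAZ5 from -5.06 to -0.98.

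SNC1, RPP4 and RPP5 lie in a cluster whose receptors differ little in sequence and may share reads, and all 3 were called lower. SNC1 was at 87.1, 84.3 and 111 CPM in Col-0 and 7.75, 10.8 and 11.3 CPM in N14 (-3.24 ± 0.17, adjusted p = 1.1e-14). RPP4 was lower at -2.43 ± 0.19 (adjusted p = 4.0e-11) and RPP5 at -0.68 ± 0.17 (adjusted p = 0.0053), the last lost without the N14 library of experiment 1 (adjusted p = 0.058). Over the other tables SNC1 ran from -4.04 to -2.51 and RPP4 from -2.73 to -1.25. RPP1 was lower at -1.06 ± 0.17 (adjusted p = 4.6e-05; -1.82 to -0.67 in other tables) and AT1G63880 at -0.69 ± 0.17 (adjusted p = 0.0054). RPP13 was called at -0.60 ± 0.18 (adjusted p = 0.027), but its value ran from -1.59 to -0.06 over the other tables and 3 libraries each ended the call (adjusted p up to 0.16). The 1 member called higher was LOV1 (0.54 ± 0.18, adjusted p = 0.048), which passed neither with the replicate block (adjusted p = 0.0504) nor without any of 4 libraries (adjusted p up to 0.25). Receptors such as RPM1, RPS4 and RRS1 were at 0.02, -0.11 and -0.02 and were not called.

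Of 22 salicylate genes tested, 3 were called higher and 2 lower, beside 6.02% and 6.32% of all genes, with a median of 0.54. With the replicate block the counts were 5 and 2. PCC1, a small gene known to respond to pathogens and the clock, was at 83.7, 105 and 55.9 CPM in Col-0 and 1.75, 1.44 and 0.828 CPM in N14 (-5.93 ± 0.57, adjusted p = 3.5e-09), though other tables gave from -6.39 to -1.03, and 5 of 6 called it. ACD6, an ankyrin-repeat regulator of cell death, was at 36.7, 130 and 74.8 CPM in Col-0 and 25.7, 35.9 and 23.3 in N14 (-1.51 ± 0.31, adjusted p = 8.5e-04), with a range of -3.90 to -0.30 over other tables, 4 of 6 of which called it lower. LURP1, needed for basal resistance to downy mildew, was at 38.5, 59.0 and 25.7 CPM in Col-0 and 459, 275 and 187 CPM in N14 (2.90 ± 0.47, 7.47-fold, adjusted p = 3.8e-05). PAD4, a lipase-like partner of EDS1, was higher at 1.18 ± 0.25 (adjusted p = 0.0011), a call made in 1 of 6 other tables, where it ran from 0.48 to 1.21.

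The classical PR outputs were uneven between N14 libraries. PR1 was at 4.66, 2.75 and 1.12 CPM in Col-0 and 86.8, 3.76 and 13.7 CPM in N14, with overlapping groups (3.60 ± 1.3, adjusted p = 0.07, and 0.033 with the replicate block). Without the N14 library of experiment 1 its difference was 1.60 (adjusted p = 0.52). PR2, a glucanase, was at 10.2 ± 7.12 CPM (SD, n = 3) in Col-0 and 61.8 ± 49.6 in N14, with overlapping groups (2.59 ± 0.65, adjusted p = 0.0059), and was not called without that library (1.79, adjusted p = 0.077). The N14 library of experiment 1 was the highest for both and for PR5. ICS1, the main salicylate synthesis enzyme, and EDS1 were at 0.48 and 0.59 and not called (adjusted p = 0.13 and 0.052). Senescence markers summed to 71.6 to 147 CPM in Col-0 and 120 to 200 CPM in N14; their part in these values was not tested.

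Jasmonate-related genes had 4 of 29 tested members higher and none lower, beside 6.02% and 6.32% of all genes, with a median of 0.16. Without the N14 library of experiment 1, 2 were higher and 1 lower. HPL1, which diverts fatty acid hydroperoxides into leaf volatiles, was at 8.47, 5.45 and 7.59 CPM in Col-0 and 267, 140 and 199 CPM in N14 (4.82 ± 0.37, 28.2-fold, adjusted p = 4.1e-11). PDF1.2, a defensin induced by jasmonate and ethylene, was at 11.8, 8.19 and 6.25 CPM against 235, 50.5 and 83.1 (3.81 ± 0.61, adjusted p = 3.1e-05; 2.93 and adjusted p = 5.5e-04 without the N14 library of experiment 1). For both genes the lowest N14 library lay above the highest Col-0 library. AOC1 and AOC2, near copies of the allene oxide cyclase of jasmonate synthesis, were higher at 1.08 ± 0.30 and 1.1 ± 0.27 (adjusted p = 0.015 and 0.0052), and neither was called without that library (adjusted p = 0.077 and 0.051). The signalling genes COI1, MYC2 and JAZ1 were at -0.20, -0.67 and -0.57, not called. In abscisic acid synthesis and response, 1 of 20 was called, the synthesis enzyme ABA2 (-0.55 ± 0.16, adjusted p = 0.017), and 3 libraries each ended that call (adjusted p up to 0.16).

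The CBF factors switch on freezing tolerance genes in the cold, and no gene of their list was called in untreated plants (0 of 16 tested in edgeR and in DESeq2, 2 at an unadjusted p under 0.05, median -0.08). CBF1 was at 1.00, 2.35 and 1.68 CPM in Col-0 and 2.97, 3.08 and 2.39 CPM in N14, CBF2 at 2.54, 4.70 and 5.86 against 3.13, 2.68 and 3.27, and CBF3 at 6.47, 6.20 and 15.0 against 10.1, 7.48 and 13. Their differences were 0.75 ± 0.78, -0.53 ± 0.55 and 0.14 ± 0.59 (adjusted p = 0.64, 0.64 and 0.93), errors as large as the values or nearly so. ICE1 and ICE2, which activate the CBF genes, were at -0.22 and -0.36.

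Among 19 cold-regulated effectors, 3 were called higher and 1 lower, beside 6.02% and 6.32% of all genes, with a median of 0.33. These calls rested on few libraries: 2 higher and none lower were left without the N14 library of experiment 1. COR47, a dehydrin, was at 170, 167 and 182 CPM in Col-0 and 283, 282 and 414 CPM in N14 (0.92 ± 0.29, adjusted p = 0.034), without overlap, and any of 4 libraries ended its call (adjusted p up to 0.18). RD29B was at 0.115, 0.133 and 0.388 CPM against 0.850, 0.6 and 2.39 (2.58 ± 0.80, adjusted p = 0.029; up to 0.25 without 1 of 3 libraries). KIN1 was higher at 1.76 ± 0.42 (adjusted p = 0.0039; 0.058 without the N14 library of experiment 1), but its direction differed between count tables, and reads may be split with its near copy KIN2: it was -0.74, -0.76 and -0.84 in the CLC, kallisto and Salmon tables. COR27, a regulator shared by cold and the clock, was lower (-2.56 ± 0.77, adjusted p = 0.025) with overlapping groups and lost without any of 3 libraries (adjusted p up to 0.22). COR15A, which protects chloroplast membranes, was at 154, 87.3 and 207 CPM in Col-0 and 297, 125 and 433 CPM in N14; N14 was above Col-0 in 3 of 3 experiments, yet the groups overlapped and it was not called (0.93 ± 0.38, adjusted p = 0.12).

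Of 27 flavonoid and anthocyanin genes tested, 3 were called lower and none higher, beside 6.32% and 6.02% of all genes, with a median of -0.18. Without the N14 library of experiment 1, 1 call was left. The count depended on the test: DESeq2 called 7 of the 27, and 9 had an unadjusted p under 0.05 in edgeR. LDOX, an enzyme of anthocyanin synthesis, was at 9.74, 1.82 and 4.53 CPM in Col-0 and 1.22, 0.44 and 1.2 in N14 (-2.53 ± 0.77, adjusted p = 0.026). TT19, which carries anthocyanins to the vacuole, was lower at -1.72 ± 0.53 (adjusted p = 0.029), and each of these calls was lost without any of 4 libraries (adjusted p up to 0.22 and 0.17). TT8, a bHLH regulator, had 2 counts over the N14 libraries, a ratio of 16 with a counting interval of 4.11 to 137 (adjusted p = 0.01, and up to 0.062 without 1 of 2 libraries). DFR was at -2.39 ± 0.84 (adjusted p = 0.062) and PAP1, the MYB activator, at -2.81 ± 1.07 (adjusted p = 0.092), not called. CHS, the entry enzyme, was at 67.6, 45.8 and 78.4 CPM against 49.8, 47.5 and 77.3 and did not pass (-0.14 ± 0.41, adjusted p = 0.89).

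Lists of photosynthetic and housekeeping leaf functions are given here, to be read beside the 6.02% of all genes called higher and 6.32% called lower. In light harvesting and Rubisco small subunits, 1 of 22 was higher and 1 lower (median 0.19): LHCB2.2 at 0.97 ± 0.21 (adjusted p = 0.0018) and its near copy LHCB2.1 at -0.65 ± 0.21 (adjusted p = 0.034), a pair whose reads may be split; 5 libraries each ended the second call (adjusted p up to 0.15). The list of photoprotection genes held 3 superoxide dismutases. FSD1, an iron form, was at 354, 454 and 500 CPM in Col-0 and 161, 131 and 232 in N14 (-1.32 ± 0.25, adjusted p = 2.6e-04). CSD1 and CSD2, copper and zinc forms, were higher at 0.81 ± 0.17 and 0.76 ± 0.18 (adjusted p = 0.0015 and 0.0035); without the N14 library of experiment 1, CSD1 was at 0.43 (adjusted p = 0.049) and CSD2 at 0.63 (adjusted p = 0.032). These were the 2 higher and 1 lower of 16 photoprotection genes (median 0.26). Among 16 iron and copper genes (median 0.09), COPT2, a copper transporter, was lower with 7 counts in N14, a ratio of 8.62 with a counting interval of 3.96 to 22.3 (adjusted p = 0.0088). YSL2 was lower at -1.69 ± 0.49 and the reductase FRO4 higher at 1.56 ± 0.42 (adjusted p = 0.018 and 0.011), and neither was called without the N14 library of experiment 1 (adjusted p = 0.073 and 0.072).

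Clock genes had 1 member higher and 1 lower of 16 (median -0.17), or 1 and 0 without the N14 library of experiment 1. LHY, a morning-phased MYB factor, was at 5.08, 2.35 and 3.45 CPM in Col-0 and 10.8, 5.6 and 11.7 in N14 (1.36 ± 0.27, adjusted p = 6.8e-04). ELF4, an evening component, was lower at -1.66 ± 0.48 (adjusted p = 0.02; up to 0.12 without 1 of 3 libraries). In starch, sugar and proline metabolism, 2 of 19 were higher (median 0.07), the sucrose synthase SUS1 (1.12 ± 0.25, adjusted p = 0.0024) and the sucrose phosphate synthase SPS2F (0.86 ± 0.25, adjusted p = 0.018); both had overlapping groups, and without 1 library their adjusted p reached 0.054 and 0.19. The lipid transfer proteins LTP5 and LTP6 were the 2 of 9 called lower (median -0.14), at -0.92 ± 0.28 and -0.85 ± 0.25 (adjusted p = 0.027 and 0.021; up to 0.25 and 0.10 without 1 library). FAD7, a plastid desaturase, was the 1 of 13 membrane lipid genes called (0.42 ± 0.11, adjusted p = 0.0092, median of the list -0.11), and 2 were called without the N14 library of experiment 1. EXPA8, an expansin, was the 1 of 18 cell wall genes called (1.26 ± 0.41, adjusted p = 0.04, median 0.10), and 5 of 6 libraries each ended that call (adjusted p up to 0.19). With the N14 library of experiment 1 left out, 0 of the 18 were called. In edgeR none of 8 heat shock, 14 phosphate starvation and 14 sulfate deficiency genes was called (medians 0.07, 0.14 and 0.31), nor in DESeq2, and 0, 4 and 1 had an unadjusted p under 0.05. Without the N14 library of experiment 1, 1 phosphate starvation gene was called higher; the largest values were -1.1 ± 1.19 for HSP17.6II, 1.59 ± 0.73 for MGD3 and -1.25 ± 0.78 for SULTR1;2.

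Outside the lists, several well-expressed genes were almost switched between accessions. AT2G36540, annotated as a haloacid dehalogenase-like hydrolase, was at 1.12, 1.55 and 0.819 CPM in Col-0 and 576, 318 and 405 CPM in N14 (8.54 ± 0.32, 372-fold, adjusted p = 9.1e-18). AT2G36550, annotated as the same kind of enzyme, had 1 count in Col-0 in all and 122, 53 and 78 counts in the N14 libraries. AT2G15555 was higher by 8.25 ± 0.66 (adjusted p = 9.6e-11), a call made in 2 of 6 other count tables, with 8.30 in the other tables that held a value. AT1G62290, an aspartyl protease, was higher by 4.79 ± 0.33 (adjusted p = 3.7e-12). The plastid gene ATCG00380 was higher by 3.8 ± 0.41 (adjusted p = 3.8e-08, with 2.43 to 3.63 in the other tables). In the other direction AT3G62530, an ARM repeat protein, was at 450, 518 and 433 CPM in Col-0 and 12.6, 5.76 and 4.51 CPM in N14 (-5.94 ± 0.27, 61.6-fold lower, adjusted p = 5.8e-16). TIR, a protein of the toll/interleukin-1 receptor type, was at -6.36 ± 0.51 (adjusted p = 9.1e-11). The cytochrome P450 CYP72A11 was at -4.22 ± 0.26 (adjusted p = 3.0e-13) and AT1G23130, a polyketide cyclase-like protein, at 437, 436 and 389 CPM against 29.1, 20.2 and 18.9 (-4.21 ± 0.17, adjusted p = 3.0e-17). None of these genes' groups overlapped, but the rules by which they were listed required that, so it is no further result.

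Some genes were close to all or none. With at most 3 counts in every library of 1 accession and at least 50 in every library of the other, 68 genes were near zero in N14 and 18 near zero in Col-0. The counts were 104 and 37 when up to 10 counts were allowed, and 41 and 8 when at least 100 were asked for in the other accession. Without the N14 library of experiment 1, 28 genes met the rule in Col-0. Of the 68, 6 were annotated as resistance proteins: ADR1, CSA1, AT4G09420, AT5G36930, AT5G40910 and AT5G46510. Among all 20263 genes tested, 127 had a product that names an NLR or TIR resistance protein. None of the 18 was so annotated, but at that share 18 genes are too few to draw a contrast with the 68. AT4G07825, of no known function, was at 29.6, 36.5 and 24.4 CPM in Col-0 and had 6 counts in N14, and MRU1 was at 18.1, 16.1 and 12.5 CPM with 2 counts, a ratio of 512 with a counting interval of 141 to 4235. Conversely AT4G04402, annotated as a two-component phosphorelay mediator, had no count in Col-0 and 21.2, 12.8 and 12.7 CPM in N14, at least 121-fold higher. AT4G06652 and the RNA helicase AT2G07750 also had no count in Col-0 and were at least 49.1-fold and 41.9-fold higher. AT4G32230 had 4 counts in Col-0 against 39.0, 25.1 and 23.5 CPM in N14 (adjusted p = 9.1e-18).

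The same contrast stood in libraries that the rule had not used. Summed over the 68 genes, the 15 other Col-0 libraries had between 8601 and 17459 counts and the 15 other N14 libraries between 53 and 277, the highest from an untreated 35-day library. Over the 18 genes, the other Col-0 libraries had 16 to 49 counts and the other N14 libraries 2618 to 4335. At most 10 counts in each of the 18 N14 libraries were seen for 61 of the 68 genes, and at most 10 in each of the 18 Col-0 libraries for 16 of the 18 genes. In all 7 count tables, 26 of the 68 and 9 of the 18 met the rule, so the list itself depended on the count table.

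Annotated protein families, grouped after values had been seen, are described by counts, to be read beside the 6.32% of all genes called lower and 6.02% called higher. Among 127 tested genes whose product names an NLR or TIR resistance protein, 45 (35.4%) were lower, 40 of them by at least 2-fold, and 15 (11.8%) were higher. Without the N14 library of experiment 1 these counts were 40 lower and 17 higher, and between 39 and 52 were lower in the other 6 tables. F-box proteins had 27 of 174 lower (15.5%) and 14 higher (8.05%), or 21 and 11 without that library. Receptor-like kinases had 37 of 210 lower and 20 higher (9.52%), or 29 and 19 without it, and MATH or TRAF-like proteins 10 of 43 lower (23.3%) and 5 higher (11.6%), or 9 and 3. Cytochrome P450s had 13 of 142 lower (9.15%) and 16 higher (11.3%), or 12 and 11 without it. Ribosomal proteins had 9 of 315 lower (2.86%) and 21 higher (6.67%), and the balance turned without that library, to 11 lower and 10 higher. Photosystem subunits had 2 of 48 (4.17%) in each direction, or 2 lower and 1 higher.

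Some of the lower genes lay side by side. Of the 797 genes placed on the reference that were lower by at least 2-fold, 148 had a neighbouring gene that was also lower, in 66 runs, 10 of them of 3 genes or more. The longest run had 7 genes and spanned the receptor cluster of SNC1 and RPP4: AT4G16870, RPP4, AT4G16880, SNC1, AT4G16892, AT4G16910 and AT4G16900. CSA1 and CHS3 formed another with AT5G17900. Among the 663 placed genes that were higher, 84 lay in 41 runs, the longest of 3 genes. How many neighbours would be found among as many genes drawn from all placed genes was not computed. The sources used here do not say whether reads were counted by strand, so overlapping neighbours may share reads.

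Most of these genes were called again in untreated plants a week older. The labels give 4 rosettes for the 35-day libraries against 15 for the 28-day ones, and the part of this in the comparison was not tested. Of the genes higher in N14 at 28 days, 832 were also higher in untreated 35-day plants, 68.2% of the 28-day list and 54.1% of the 35-day list, and of those lower, 872 were lower again, 68.1% and 67.2%. None was called in the opposite direction. At 35 days 14.0% of all genes were called, 7.60% higher and 6.41% lower. Flower markers, none called at 28 days, were lower in N14 for 5 of 5 tested at 35 days, and their part in the 35-day values was not tested. At least 2-fold differences recurred in 542 of 670 genes (80.9%) and 653 of 804 (81.2%). FLC was at 5.77 at 35 days, SOC1 at -4.04, ESP at 6.25 and ESM1 at -4.50, all called again. FT had no counts in the N14 libraries at 35 days either and was at 4.94 ± 1.56 CPM (SD, n = 3) in Col-0. The direct test of 28 against 35 days called no gene in edgeR, with 843 genes at an unadjusted p under 0.05, and 9 genes in DESeq2.

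**Figure D5:**
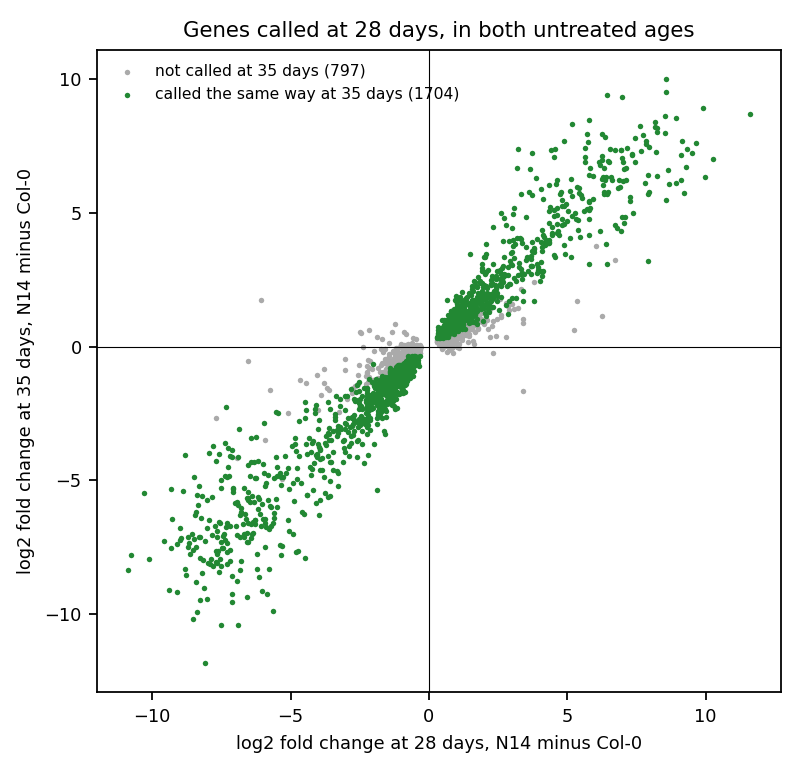
Log2 fold change of N14 minus Col-0 at 35 days (y axis) against that at 28 days (x axis) for the genes called at 28 days, which share no library between the axes. Genes called the same way at both ages (832 higher and 872 lower) are green; they lie at the lower left and upper right, and no gene was called in opposite directions.

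Plants moved to 4 °C for 3 days under weaker light are called primed. Of the genes higher at 28 days, 600 (49.2%) were higher in primed plants, and of those lower, 759 (59.3%) were lower, while 8 and 4 were called in the opposite direction; 11.1% of all genes were called there, 4.97% higher and 6.09% lower. A test of the difference between the untreated and the primed contrast called 61 genes (0.301%), 40 (0.197%) with a more positive and 21 (0.104%) with a more negative value in untreated plants. The count depended on the fit: it was 176 in DESeq2, 19 with only the libraries compared, 40 without the Col-0 library of experiment 1 and 37 without that of experiment 3. HPL1, 28.2-fold higher in untreated N14, was at 3.06 ± 1.28 CPM in Col-0 and 5.89 ± 1.94 CPM in N14 after the cold (SD, n = 3), and the difference of differences was 3.87 ± 0.49 (adjusted p = 1.0e-04). DEG14, a protease with a PDZ domain, was at 64.1, 71.5 and 45.8 CPM in untreated Col-0 and 3.72, 4.44 and 3.77 in untreated N14 (-3.92 ± 0.23, adjusted p = 1.3e-13; -4.53 to -1.72 in other tables), but at 12.4 ± 0.961 and 16.6 ± 1.21 CPM in the primed groups, a difference of -4.34 ± 0.30 (adjusted p = 3.4e-10). FLC, ESP and ESM1 were still called in primed plants, at 4.47, 6.09 and -3.45. Over all 6 conditions, 433 of the genes higher at 28 days and 572 of those lower were called the same way in each, and 184 and 198 were called at 28 days alone.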

How the data were processed

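Per the labels' protocols, libraries were polyA-enriched, made with a directional kit, from pooled rosettes. The authors deposited 7 count tables of the same 36 libraries. The STAR, TopHat, BWA and CLC tables hold whole-number read counts as deposited, not normalized. Expected counts were deposited for kallisto, RSEM and Salmon; 86.6%, 94.2% and 86.8% of their values were already whole, and all were rounded before use. The submitters' processing notes name TAIR10, BWA 0.7.13, HTSeq 0.7.2, RSEM 1.2.30, SAMtools 1.3, STAR 2.5.2a, Salmon 0.6.0, TopHat2 2.1.1 and kallisto 0.42.5. The BWA table held its 32243 genes in 2 identical copies, and 1 was read. Gene names came from the TAIR10.1 annotation, which held 32835 of 33602 identifiers; no coordinates are given because the assembly names differ.

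The main test ran on the STAR table in edgeR 4.0.16 (R 4.3.3): filterByExpr by group (20263 genes), TMM scaling, and a quasi-likelihood fit of 12 group means over all 36 libraries, with contrasts adjusted by the Benjamini-Hochberg method. Each SE was derived from the fold change and its F statistic. Alternatives were DESeq2 1.42.0, other scalings, no filter, only the libraries compared, a replicate block, leaving out each library, and the other 6 tables. The fit was tested on simulated data. Replicates differed beyond sampling noise, with a chi-square per gene of 19.4 to 72 between libraries of a group, so each was counted once. P-values set each difference against the spread between pooled replicates within groups, estimated over all 12 groups and not from the 6 libraries compared alone. Counting intervals and floors cover counting error only.

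Replicate numbers mark the shared experiment per the labels. The main fit has no term for the experiment, and the fit with it as a replicate block is an alternative. Deviations from the group means correlated at 0.234, 0.0169 and 0.71 between same-numbered libraries over 11566 genes; between different-numbered ones they ran from -0.648 to 0.332, and 2 of them, 0.332 and 0.311, exceeded 2 of those 3 values.

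The comparison, the 24 gene lists (453 members, 427 tested) and the tests were chosen with earlier results of these data known. Genes were named by a rule: 14 in any case, up to 4 called members per list, the 10 largest changes in each direction at a mean log2 CPM of at least 3 without overlap, the 10 highest genes near zero in each accession, the 5 smallest adjusted p in each direction, and the 5 largest differences between contrasts. Further list members were named after their values were seen.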

Additional observations from a re-analysis of the deposited data

Results flagged for a closer look

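These genes had an accession difference in untreated 28-day plants that differed from that in primed plants in the direct test (edgeR, adjusted over all genes tested); values are untreated minus primed on the log2 scale, and levels are mean CPM ± SD over 3 libraries.

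For HPL1 the difference was 3.87 ± 0.49 (adjusted p = 1.0e-04), with N14 at 202 ± 63.9 CPM untreated and 5.89 ± 1.94 primed. For LURP1 it was 3.08 ± 0.63 (adjusted p = 0.019), with Col-0 at 41.1 ± 16.8 CPM untreated and 274 ± 69.3 primed while N14 was at 307 ± 139 and 241 ± 79.9. KIN1 differed by 2.93 ± 0.57 (adjusted p = 0.015), a gene whose untreated direction reversed in 3 of the other count tables. ACD6 differed by 2.92 ± 0.44 (adjusted p = 6.1e-04), with Col-0 at 80.5 ± 46.8 and 248 ± 6.96 CPM and N14 at 28.3 ± 6.69 and 11.5 ± 4.93.

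AT5G53700, an RNA-binding protein near zero in untreated Col-0, differed by 2.75 ± 0.58 (adjusted p = 0.028), with Col-0 at 0.073 ± 0.0674 and 0.659 ± 0.113 CPM. AT2G36540 differed by 1.59 ± 0.36 (adjusted p = 0.0498), with N14 at 433 ± 131 CPM untreated and 170, 168 and 200 CPM primed. AT4G16880, of the SNC1 cluster, differed by -2.01 ± 0.40 (adjusted p = 0.017), with Col-0 at 40.9 ± 3.12 and 10.6 ± 1.84 CPM. DEG14 differed by -4.34 ± 0.30 (adjusted p = 3.4e-10), with Col-0 at 60.5 ± 13.2 and 12.4 ± 0.961 CPM and N14 at 3.98 ± 0.402 and 16.6 ± 1.21.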

How the results depend on the processing

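With only the libraries compared in the fit, 536 genes were higher and 732 lower, 702 were called the same way at 28 and 35 days against 1704, and 19 differed between untreated and primed plants against 61; the fit then has fewer libraries to estimate the spread. DESeq2 called 176 genes for the latter. The test of 28 against 35 days called 2 genes with no filter, 9 with DESeq2, 3 with the replicate block, and 1 without the N14 35-day library of experiment 1, a setting chosen after seeing the data; the cause was not tested.

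Leaving out 1 of the 6 libraries, or that 35-day library, gave 878 to 1256 genes higher, 979 to 1340 lower, 563 to 714 and 683 to 840 by at least 2-fold, 1473 to 1681 shared with 35 days, 37 to 68 against primed plants, 0 to 1 against 35 days, and 69 to 76 and 18 to 28 genes near zero in N14 and Col-0. Changed floors gave 104 and 37 or 41 and 8 such genes. KIN1 reversed to -0.74 (CLC), -0.76 (kallisto) and -0.84 (Salmon); no other named gene reversed under any setting. The replicate block moved PR1 past the threshold and changed no other call of a gene named by the rule. Of the other list members it ended the call of LOV1, and some members of 3 lists gained a call. With the block, salicylate genes had 5 higher and 2 lower, glucosinolate breakdown 2 and 7, and photoprotection 3 and 1. The main fit gave 3 and 2, 1 and 6, and 2 and 1. Of 104 tested named genes, leaving out 1 of the 6 libraries ended 8 to 14 calls, leaving out that 35-day library ended none, each other count source ended between 2 and 4, and only the libraries compared ended 18 of 101. Genes called the same way in all 7 tables were 834 of 1091 higher (76.4%) and 917 of 1130 lower (81.2%) among those tested in all. At least 1 other table called 6 of the 1220 higher and 3 of the 1281 lower genes in the opposite direction. With 3 libraries a side, log2 errors of 0.5 or more at low counts limit what can be called.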

Other observations

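A few genes with less familiar products had the smallest adjusted p of the comparison. AT4G29200 and AT2G04378 share an annotation as beta-galactosidase-related proteins and stood in opposite directions. AT4G29200 was at 0.077, 0.177 and 0.172 CPM in Col-0 and 37.1, 34.8 and 27.5 CPM in N14 (7.84 ± 0.30, adjusted p = 1.7e-17 in edgeR), while AT2G04378 was at 42.1, 47.4 and 37.6 CPM in Col-0 and 0.266, 0.120 and 0.230 in N14 (-7.70 ± 0.34, adjusted p = 2.9e-16; -8.35 to -7.78 in other tables). HSD2, a hydroxysteroid dehydrogenase, was at 31.1, 33.0 and 28.1 CPM in Col-0 and 0.266, 0.200 and 0.368 in N14 (-6.78 ± 0.31, adjusted p = 5.2e-16; -6.91 to -5.83 in other tables). AT3G47250, of a family of putative transmembrane proteins, was at 44.7, 63.3 and 66.5 CPM in Col-0 and 0.372, 0.160 and 0.092 in N14 (-8.15 ± 0.34, adjusted p = 6.4e-17), and AT5G28919 at 38.0, 40.9 and 37.1 CPM against 0.266, 0.480 and 0.230 (-6.84 ± 0.30, adjusted p = 2.4e-16). SADHU5-1, whose name is that of a retroelement family, was at 5.62, 10.8 and 7.59 CPM in Col-0 and 169, 149 and 209 in N14 (4.46 ± 0.27, adjusted p = 1.8e-13; 5.46 to 5.72 in the other tables that held a value), and AT2G27402, annotated as a plastid transcriptionally active protein, was lower at -4.07 ± 0.30 (adjusted p = 1.2e-11), between -6.50 and -2.99 in the other tables.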
